A study of Mus musculus with 9 samples.

Results

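The genes Wls, Fzd4, Axin2, Smad1, Id3 and Fgf10 belong to the Wnt, BMP and Fgf pathways, and each had 1 promoter window in a comparison of mouse HPC7 cells carrying Snai1 with cells carrying an empty vector. They are 6 of 10198 genes, and their windows 6 of 10271 windows, that the comparison covered. The genes were chosen by name with their changes in log2 concentration between MIG-Snai1 and MIG-EV already known, so those changes and their FDR are given below as a description, and no test rests on them. All windows of the listed genes were taken, whatever their values.

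HPC7 is a line of mouse blood progenitors kept growing by stem cell factor. The group MIG-Snai1 carried a retroviral vector for FLAG-tagged wildtype Snai1, a zinc finger repressor of epithelial genes, and the group MIG-EV carried the empty retroviral vector as a transduction control. Cells of both groups were of the HPC7 line and were grown in the same medium with mouse stem cell factor. Each group had 3 libraries of ATAC-seq, which uses a transposase to cut and tag accessible chromatin. The group MIG-mut5Snai1, with a mutant Snai1, also had 3 libraries and was not analysed here. Whether a group's libraries stem from separate transductions is not stated in the labels, so the p-values may measure technical spread only. The deposited table gives 1 value per group and window and none per library, so no spread between libraries can be attached. Reads per library were not among the data used.

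Wnt proteins need the membrane carrier Wls to leave the cell, bind Frizzled receptors such as Fzd4, and stabilise beta-catenin, which Axin2 helps to destroy. BMP ligands act through receptor kinases that phosphorylate Smad1 and its relatives, and the Id genes, which encode inhibitors of basic helix-loop-helix factors, are among the classic Smad targets. Fgf10 is a ligand of receptor tyrosine kinases, best known from limb and lung development. Wnt and BMP signals are studied in blood progenitors as regulators of self-renewal and lineage choice.

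Accessibility is given as log2 concentration, the authors' log2 of the normalised reads in a window, as 1 value per group. A change is MIG-Snai1 minus MIG-EV of those values. The windows run from 1000 bp before a gene start to 1000 bp after it on the plus strand, and to 100 bp after it on the minus strand, and are placed on mm10. Across all windows, 29.9% passed the authors' FDR threshold of 0.05, 19.6% as higher and 10.3% as lower in MIG-Snai1, and the median change was 0.08. Of the windows that passed, 65.5% were higher; with the median of all windows subtracted and the changes tested again, 34.4% were, and with the median of the windows within 5 Mb subtracted, 38.5%. Among 12 blood progenitor markers 11 had a window, with Lhx2 the exception, and their log2 concentrations ran from 9.39 to 12.44 in MIG-Snai1 and from 9.22 to 12.22 in MIG-EV. Of these 11, Tal1 (0.41), Gata2 (0.25), Myb (0.25) and Lyl1 (0.22) rose, Runx1 (-0.61) and Cd34 (-0.39) fell, and the others, Kit (-0.08) among them, did not pass. With the median within 5 Mb subtracted, Tal1 alone of the 11 passed. Among 9 fibroblast markers 2 had a window, Pdgfrb at 10.21 in MIG-Snai1 and 10.14 in MIG-EV, and Fap at 9.53 in MIG-Snai1 and 9.15 in MIG-EV. The Fap window lay 1488 bp inside the gene. The window at the endogenous Snai1 gene stood at 8.43 in MIG-Snai1 and 9.81 in MIG-EV, and reads from the vector's copy cannot be told apart there.

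The promoter sequences of 4 of the genes are shown because they pair a gene that rose and one that fell within each kind of promoter: Axin2 and Fzd4 are rich in CpG, and Fgf10 and Id3 less so. Each is the 250 bases before the RefSeq transcript start on GRCm38.p6, 5′ to 3′ on the plus strand. They lie at chr11:108920099-108920348 for Axin2, chr7:89404116-89404365 for Fzd4, chr13:118714449-118714698 for Fgf10 and chr4:136143572-136143821 for Id3. Capitals mark the GC box GGGCGG on either strand in Axin2, Fzd4 and Id3, and the E-box core CANNTG in Fgf10. Neighbouring GC boxes can share bases, as they do in Fzd4 and Id3.
Axin2: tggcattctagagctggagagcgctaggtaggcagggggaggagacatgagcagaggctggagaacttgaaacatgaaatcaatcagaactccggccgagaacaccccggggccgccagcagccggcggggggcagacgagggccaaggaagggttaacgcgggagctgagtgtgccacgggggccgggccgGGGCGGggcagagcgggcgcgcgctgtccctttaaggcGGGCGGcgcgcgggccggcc
Fzd4: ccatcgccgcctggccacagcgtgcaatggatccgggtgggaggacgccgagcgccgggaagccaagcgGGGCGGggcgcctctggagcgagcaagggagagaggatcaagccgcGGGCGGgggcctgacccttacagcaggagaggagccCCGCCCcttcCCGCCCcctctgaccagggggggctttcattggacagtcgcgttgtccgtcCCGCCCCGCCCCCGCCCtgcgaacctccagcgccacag
Fgf10: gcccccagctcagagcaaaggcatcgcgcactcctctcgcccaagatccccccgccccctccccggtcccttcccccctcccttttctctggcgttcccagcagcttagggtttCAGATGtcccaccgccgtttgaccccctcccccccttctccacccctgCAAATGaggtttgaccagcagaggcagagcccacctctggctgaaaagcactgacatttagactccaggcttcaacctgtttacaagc
Id3: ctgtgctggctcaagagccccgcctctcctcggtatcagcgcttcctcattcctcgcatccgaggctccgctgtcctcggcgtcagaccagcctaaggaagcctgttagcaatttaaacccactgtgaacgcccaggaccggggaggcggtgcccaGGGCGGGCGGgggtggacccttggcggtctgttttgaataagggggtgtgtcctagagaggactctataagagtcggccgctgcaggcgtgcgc

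The preferred Snai1 site CAGGTG, searched on both strands over the 300 bases that end 50 bases after the start, occurred in 0 of the 6 promoters. It occurred in 20.2% of all 32851 RefSeq promoters of that length and in 16% of the 7798 whose start lay within 100 bp of a window's start position. The wider E-box core CANNTG, which contains CAGGTG, occurred 2 times in Fgf10 and 1 time in Wls, and in 61.2% of promoters with a window. The TCF and LEF motif CTTTGAT, through which beta-catenin acts, occurred in 0 of the 6, against 2.36% of promoters with a window. These windows of 300 bases cover a small stretch of each measured window, and the absence of these letters says nothing about other stretches.

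GC boxes, in contrast, occurred in all 6 promoters, and in 67.3% of promoters with a window. Fzd4 held 8 of them, the last after the transcript start, Axin2 and Id3 held 2 each, and Wls, Smad1 and Fgf10 held 1 each. A CCAAT box, searched on both strands, occurred 1 time each in Fzd4, Axin2 and Smad1, and in 39.6% of promoters with a window. CpG content varied among the genes that rose as well as among those that fell. Among the genes that rose, Axin2 had 31 CpG in 300 bases, Wls 11 and Fgf10 10. Among those that fell, Fzd4 had 32, Smad1 31 and Id3 19. The median of promoters with a window was 22.

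**Figure D1:**
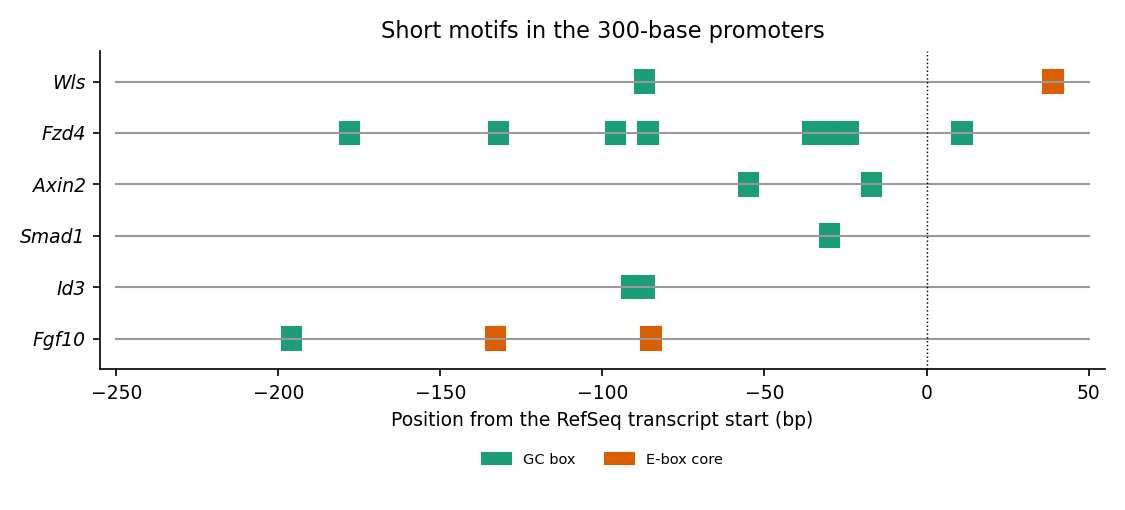
Positions of short motifs in the 300-base RefSeq promoters of the 6 genes, in bp from the transcript start, with GC boxes in green and E-box cores in orange. Fzd4 carries 8 GC boxes, and E-box cores occur in Wls and Fgf10.

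Of the 6 windows, Wls, Axin2 and Fgf10 were higher in MIG-Snai1, and Fzd4, Smad1 and Id3 were lower. All 6 passed the authors' FDR, against 29.9% of all windows, which follows from how the genes were listed. The increases began from windows that were nearly closed in MIG-EV, and the decreases from windows that were open in MIG-EV at a level below most promoters. In each group all 6 lay under the median window, which was 10.84 in MIG-Snai1 and 10.78 in MIG-EV.

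Wls, the carrier that Wnt ligands need for secretion, had a log2 concentration of 7.42 in MIG-Snai1 and 4.40 in MIG-EV. On the linear scale that was 171 normalised reads in MIG-Snai1 and 21.1 in MIG-EV. The change of 3.02 had an implied SE of 0.26, a standard error worked back from the change and the authors' p-value, and ranked 15 among the increases of all 10271 windows. In MIG-EV it ranked 10 from the lowest of all windows. Its FDR in the authors' deposited table was 2.97e-29. The window (chromosome 3, 159838695 to 159840695) was centred 45 bp inside the annotated 5′ end of the gene, and no window followed it on the chromosome.

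Fzd4, the Frizzled receptor that also binds the ligand Norrin, had a log2 concentration of 5.91 in MIG-Snai1 and 8.67 in MIG-EV. In normalised reads that was 60.1 in MIG-Snai1 and 407 in MIG-EV. The change of -2.76 (implied SE 0.16) ranked 27 among the decreases, and the FDR in the authors' deposited table was 1.99e-62. Fzd4 was the most closed of the 6 in MIG-Snai1, where it ranked 83 from the lowest of all windows. The window (chromosome 7, 89403366 to 89405366) was centred on the annotated 5′ end of Fzd4. It also held the annotated 5′ end of Tmem135, a gene on the other strand, so accessibility at the 2 starts cannot be told apart. The only window assigned to Tmem135, 65.6 kb away inside that gene, had a change of 0.08.

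Axin2, a scaffold of the beta-catenin destruction complex and itself a target of Wnt signalling, had a log2 concentration of 8.98 in MIG-Snai1 and 4.11 in MIG-EV. In normalised reads that was 505 in MIG-Snai1 and 17.3 in MIG-EV, a 29.2-fold difference. The change of 4.87 (implied SE 0.23) ranked 4 among the increases, and the FDR in the authors' deposited table was 1.34e-92. Of the 6 genes it was the most closed in MIG-EV, and with Snai1 it was the most open. The window (chromosome 11, 108919349 to 108921349) lay 2521 bp inside the outer 5′ boundary of the gene. That position is not an unannotated one: it matched the transcript start of Axin2 in the RefSeq promoter table to the base. No window covered the outer 5′ boundary, so nothing can be said of that start here.

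Smad1, which carries the BMP signal to the nucleus, had a log2 concentration of 7.61 in MIG-Snai1 and 9.15 in MIG-EV. In normalised reads that was 195 in MIG-Snai1 and 568 in MIG-EV. The change of -1.54 (implied SE 0.13) was the smallest of the 6 and the one with the smallest implied SE, and the FDR in the authors' deposited table was 8.47e-30. Its window (chromosome 8, 79399368 to 79400468) was the only one of the 6 on the minus strand, and its gene start lay 40 bp upstream of the annotated 5′ end.

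Id3, a target of BMP and Smad signalling that restrains basic helix-loop-helix factors, had a log2 concentration of 7.0 in MIG-Snai1 and 8.59 in MIG-EV. In normalised reads that was 128 in MIG-Snai1 and 385 in MIG-EV, a 3.01-fold difference. The change was -1.59 (implied SE 0.19), and the FDR in the authors' deposited table was 5.25e-15. Id3 and Smad1 thus differed in change by less than the implied SE of either. The Id3 window (chromosome 4, 136142822 to 136144822) was centred on the 5′ end of a gene only 1571 bp long, and it covered most of it.

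Fgf10 had a log2 concentration of 7.59 in MIG-Snai1 and 4.90 in MIG-EV. In normalised reads that was 193 in MIG-Snai1 and 29.9 in MIG-EV. The change of 2.69 (implied SE 0.26) ranked 17 among the increases, and the FDR in the authors' deposited table was 4.92e-23. The window (chromosome 13, 118713699 to 118715699) was centred on the annotated 5′ end. With Snai1, Fgf10, Smad1 and Wls reached nearly the same level, 7.59, 7.61 and 7.42, although they differed widely in MIG-EV (4.90, 9.15 and 4.40).

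**Figure D2:**
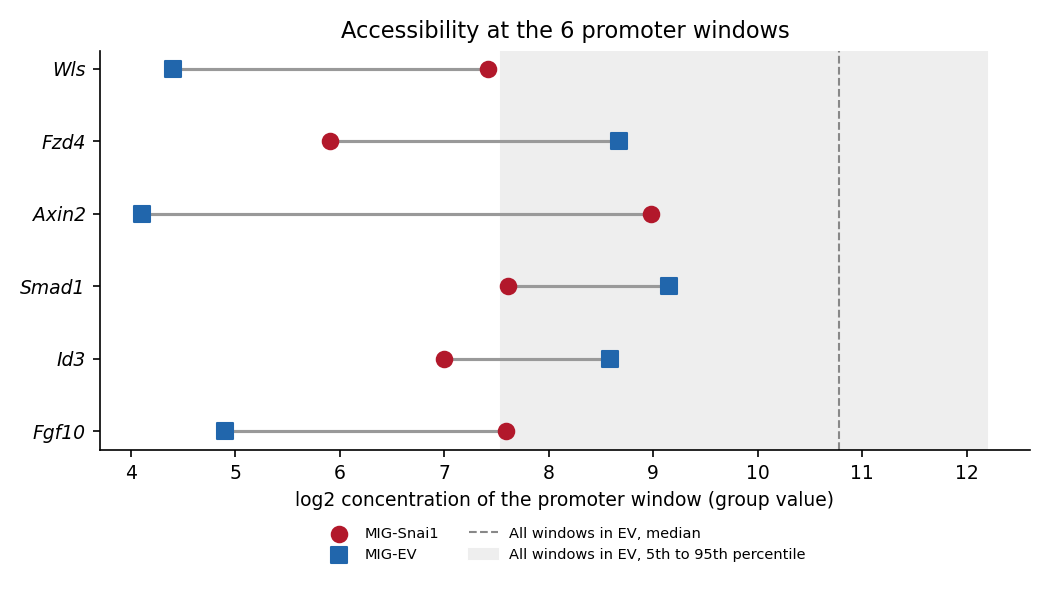
Log2 concentration of each promoter window in MIG-Snai1 (red circles) and MIG-EV (blue squares), 1 group value each, with the median (10.78) and the 5th to 95th percentile of all windows in MIG-EV. Wls, Axin2 and Fgf10 lie further right in MIG-Snai1, and Fzd4, Smad1 and Id3 further left.

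The 3 windows that rose belonged to a small group. Only 21 of the 10271 windows had a log2 concentration under 5 in MIG-EV, and Wls, Axin2 and Fgf10 were 3 of them. Of these 21, 18 were higher in MIG-Snai1, and 13 rose by at least 2.5. Of the 18, 17 passed the FDR of the authors' deposited table, while 19.6% of all windows passed as higher. The 21 were picked by a low MIG-EV value, which is subtracted in the change, so the cut itself favoured increases. The rule by which windows entered the table was not among the sources used. A window so low in MIG-EV that entered the table because it was open with Snai1 had to differ. Some windows were low in both groups, such as Pcdh19 (3.18 in MIG-Snai1 and 3.72 in MIG-EV). Whether the entry of windows shaped these increases was not tested. The decreases came from a fuller range. In MIG-EV, 968 windows lay between 8 and 9.5, the range of Fzd4, Smad1 and Id3, and 34 of them fell by at least 1.5, while their median change was 0.05.

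**Figure D3:**
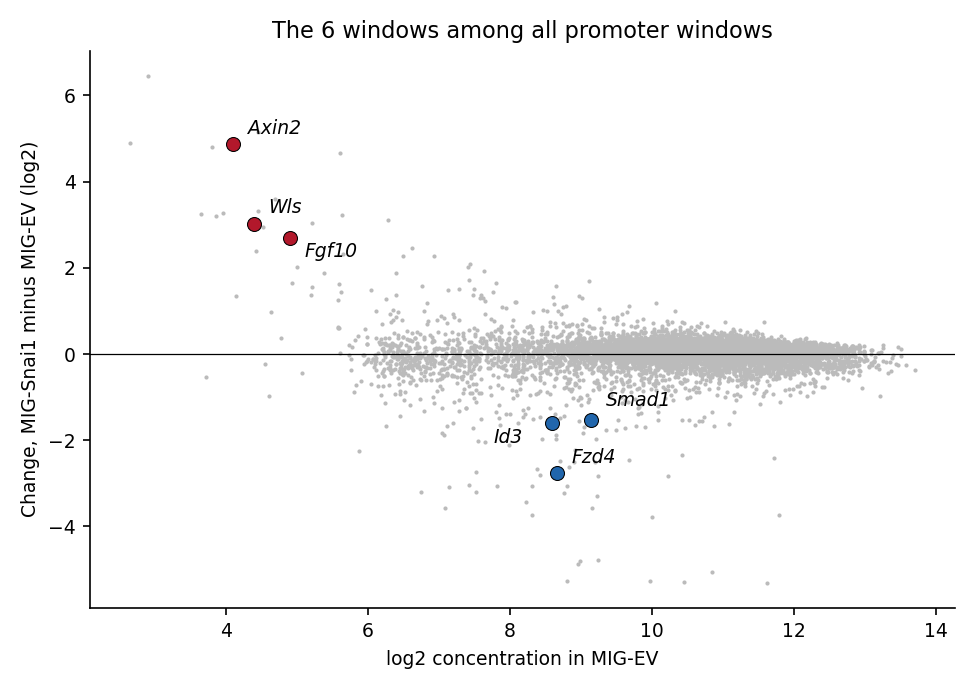
Change (MIG-Snai1 minus MIG-EV, log2) against log2 concentration in MIG-EV for all 10271 windows in grey, with the 3 genes that rose in red and the 3 that fell in blue. The genes that rose sit at the closed end in MIG-EV, under 5, and those that fell between 8.59 and 9.15.

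The windows most like each gene were found by the distance between their pairs of group values (2 values per window, MIG-Snai1 and MIG-EV). Predicted genes with Gm or Rik names and windows without a gene were left out. None of the nearest windows belonged to a gene of the Wnt, BMP and TGF-beta, or Fgf lists used below. Nearest to Axin2 were Irs2 (8.62 in MIG-Snai1 and 3.81 in MIG-EV, distance 0.47) and P2ry1 (distance 0.71). Chsy3 (7.46 in MIG-Snai1 and 4.52 in MIG-EV) and Epdr1 (7.77 in MIG-Snai1 and 4.45 in MIG-EV) were nearest to both Wls and Fgf10. Fzd4 was nearest to Dock1 (5.76 in MIG-Snai1 and 8.81 in MIG-EV, distance 0.21) and Lrrc4 (distance 0.31). Smad1 was nearest to Adora2a (7.74 in MIG-Snai1 and 9.16 in MIG-EV, distance 0.13) and Mmp15 (distance 0.20). For Id3 the closest were Lrif1 (7.01 in MIG-Snai1 and 8.62 in MIG-EV, distance 0.03) and the costimulatory gene Cd86 (distance 0.17).

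Nearby windows did not share these changes. Within 5 Mb on either side of each gene, none of the other windows moved as far in the same direction. Such changes were rare anywhere: of 10271 windows, 17 rose by at least 2.5 and 75 fell by at least 1.5. The genes were chosen with their large changes known, so a match nearby was unlikely in any region. Around Axin2, 52 windows ranged from -0.78 (Icam2) to 0.50 (Pecam1), with a median of -0.04. Its neighbours Prkca, 576 kb before it, and Rgs9, 378 kb after it, had changes of -0.42 and -0.75, the opposite direction. Around Wls, 7 windows, all of them before it, ranged from 0.03 to 0.26, and around Fgf10, 13 windows ranged from -0.51 to 0.22.

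The same held for the genes that fell, with a few single windows that also stood apart. Around Fzd4, 15 windows had a median of 0.21, and the lowest was Fam181b at -1.55. Around Smad1, 47 windows ranged from -0.45 to 1.00, and its neighbours Mmaa and Otud4 had changes of 0.04 and 0.13. Around Id3, 109 windows had a median of 0.07, the lowest being Pla2g5 at -1.17 and the highest Man1c1 at 3.22. The nearest windows to Id3 were those of the ribosomal protein gene Rpl11, 90.5 kb before it with a change of 0.06, and of the cell cycle factor gene E2f2, 37 kb after it with a change of -0.52 (FDR 0.0634 in the authors' deposited table). With the median of the windows within 5 Mb subtracted, the changes were 4.92 for Axin2, 2.90 for Wls, 2.61 for Fgf10, -2.97 for Fzd4, -1.64 for Smad1 and -1.66 for Id3.

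**Figure D4:**
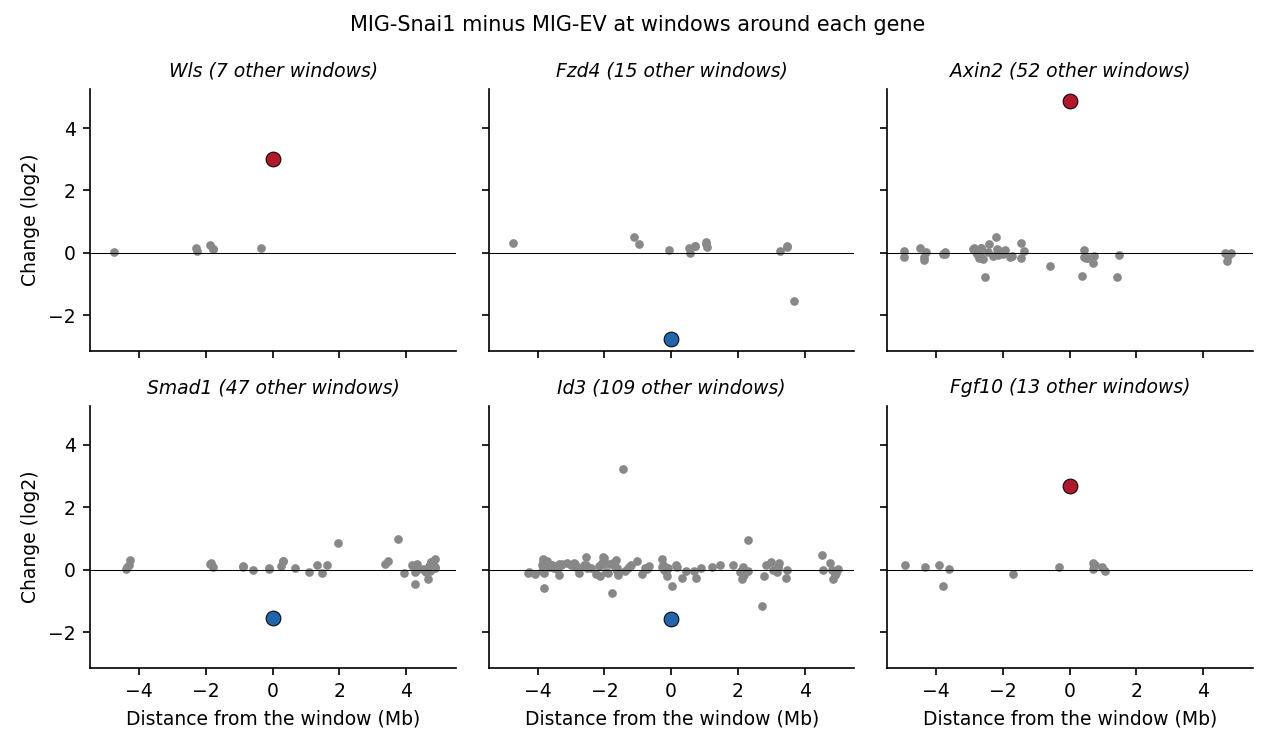
Change (MIG-Snai1 minus MIG-EV, log2) at every window within 5 Mb of each gene, against the distance in Mb, with the named gene as the large point and the others in grey. Most grey points lie near 0, with single exceptions such as Man1c1 at 3.22 near Id3.

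Beyond Wls, Fzd4 and Axin2, the changes of Wnt genes lay between -0.60 and 1.01. Of 94 Wnt genes listed, 37 had a window, and 15 (40.5%) passed the FDR of the authors' deposited table, 9 higher and 6 lower, against 29.9% of all genes with a window (19.6% higher and 10.3% lower). Without Wls, Fzd4 and Axin2 it was 12 of 34 (35.3%), 7 higher and 5 lower, and the median change was 0.065 beside 0.08 for all genes. Among ligands, 1 of 23 had a window, Wnt9a, which fell by 0.23. The other Frizzled receptors with a window were Fzd2 (0.22) and Fzd7 (0.29), which rose, and Fzd5 (0.02), which did not pass. The co-receptor genes Lrp5 (-0.16) and Lrp6 (-0.07) did not pass either. Of the 6 receptor genes with a window, Fzd4 changed most.

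Genes listed as inhibitors of the Wnt pathway made up 20 of its 37 genes with a window. That listing also held Tnks (0.07) and Tnks2 (0.03), which are not inhibitors of the pathway, and neither passed. Of the 20, 9 (45%) passed, 6 higher and 3 lower, against 29.9% of all genes (19.6% higher and 10.3% lower). With the median of all windows subtracted 4 were higher and 3 lower, against 7.24% higher and 13.8% lower of all genes. Both counts of higher genes include Axin2, which was chosen with its change known. Dkk1, a secreted antagonist of the Lrp co-receptors, had a log2 concentration of 7.80 in MIG-Snai1 and 6.79 in MIG-EV (change 1.01, implied SE 0.18), with an FDR of 9.06e-07 in the authors' deposited table. After Axin2 it was the inhibitor that rose most. The Groucho-type corepressor genes Tle1 (0.74) and Tle3 (0.18), the related gene Tle5 (0.35) and the kinase gene Gsk3a (0.21) also rose. Tle4 (0.05) did not pass. Znrf3 (-0.60) and Rnf43 (-0.28), which encode ubiquitin ligases that remove Frizzled receptors from the membrane, both fell. Gsk3b fell by 0.37, and the transducer Dvl3 by 0.21, but both lie on chromosome 16, where nearby windows were lower as well. With the median within 5 Mb subtracted Gsk3b stood at -0.03 and Dvl3 at 0.07. Axin1, the constitutive relative of Axin2, had a change of 0.10 at a window 7469 bp inside the gene, and Btrc one of 0.11, and neither passed. Of 9 transducers with a window 1 (11.1%), Dvl3, passed, against 29.9% of all genes. With the median within 5 Mb subtracted Dvl3 did not pass, and Bcl9, at a window deep inside the gene, passed as lower (-0.50). Fzd2, Gsk3a and Tle3 did not pass with the median of all windows subtracted.

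In the BMP and TGF-beta list 29 of 71 genes had a window, and 7 (24.1%) passed, 2 higher and 5 lower, against 29.9% of all genes (19.6% higher and 10.3% lower). With the median of all windows subtracted the counts were 1 higher and 8 lower, against 7.24% higher and 13.8% lower of all genes. With the median within 5 Mb subtracted they were 1 higher and 7 lower, against 5.36% higher and 8.53% lower of all genes. Without Smad1 and Id3, 5 of 27 (18.5%) passed, 2 higher and 3 lower. Smad1 was the only Smad of the pathway that passed: Smad5, which also carries BMP signals, had a change of 0.01, Smad3 one of 0.10 and Smad4 one of -0.06, each at a window on its 5′ end. The only Smad2 window (-0.11, implied SE 0.27) lay 20031 bp inside the gene and was nearly closed, at 5.66 in MIG-Snai1 and 5.77 in MIG-EV, so it says nothing of the Smad2 promoter. Among the Id genes, Id1 (-0.11) and Id2 (0.05) did not pass, and Id4 had no window. The differences of Smad1 and of Id3 from these relatives were not tested. The relatives are named whatever their values, and this choice was made after the values were seen.

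Receptors of the BMP and TGF-beta list moved both ways. Acvr1, a type I BMP receptor gene, had a log2 concentration of 8.99 in MIG-Snai1 and 7.89 in MIG-EV (change 1.1, implied SE 0.13), with an FDR of 4.64e-15 in the authors' deposited table. Tgfbr3, the betaglycan co-receptor gene, stood at 7.34 in MIG-Snai1 and 8.29 in MIG-EV (change -0.95, implied SE 0.15). Tgfbr2 rose by 0.20, and did not pass with the median of all windows subtracted. Gdf15, a stress-induced ligand gene, stood at 6.22 in MIG-Snai1 and 7.29 in MIG-EV (change -1.07, implied SE 0.22). Its window was centred 835 bp inside the gene. The ubiquitin ligase gene Smurf1 fell by 0.51. The inhibitor genes Smad6 (0.13), Ski (-0.03) and Bambi (-0.07) and the receptor gene Tgfbr1 (-0.22, FDR 0.0542 in the authors' deposited table) did not pass. With the median of all windows subtracted Tgfbr1 (-0.30), Acvr2a (-0.25) and Tgfb3 (-0.22) passed as lower, and with the median within 5 Mb subtracted Acvr2a and Tgfb3 did.

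Of 53 Fgf pathway genes 21 had a window, and 9 (42.9%) passed, 5 higher and 4 lower, against 29.9% of all genes (19.6% higher and 10.3% lower). With the median of all windows subtracted the counts were 3 higher and 4 lower, against the same 7.24% and 13.8% of all genes. Without Fgf10, 8 of 20 (40%) passed, 4 in each direction. The other ligands with a window, Fgf7 (-0.16) and Fgf11 (-0.15, inside the gene), did not pass. Fgfr1 was the only receptor gene with a window and fell, at 8.24 in MIG-Snai1 and 8.93 in MIG-EV (change -0.69, implied SE 0.12), with an FDR of 3.93e-07 in the authors' deposited table. Fgfr2, the main receptor of Fgf10, had no window. Feedback inhibitors were divided: Dusp6 (0.29) and Spred1 (0.24) rose, and Spry4 (-0.43) and Spred3 (-0.53) fell. The Spred3 window lay 1423 bp inside the gene. Spry2 (0.27), Spred2 (0.00) and Cbl (-0.07) did not pass. The ETS factor genes Etv4 (0.37) and Etv5 (-0.34) moved in opposite directions, and Etv5, on chromosome 16, stood at -0.05 with the median within 5 Mb subtracted. Among the transducers, Sos2 rose by 0.29, and Frs3 (0.08) did not pass. The Frs3 window used, the more open of 2, lay 7600 bp inside the gene. Sos2 and Spred1 did not pass with the median of all windows subtracted.

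**Figure D5:**
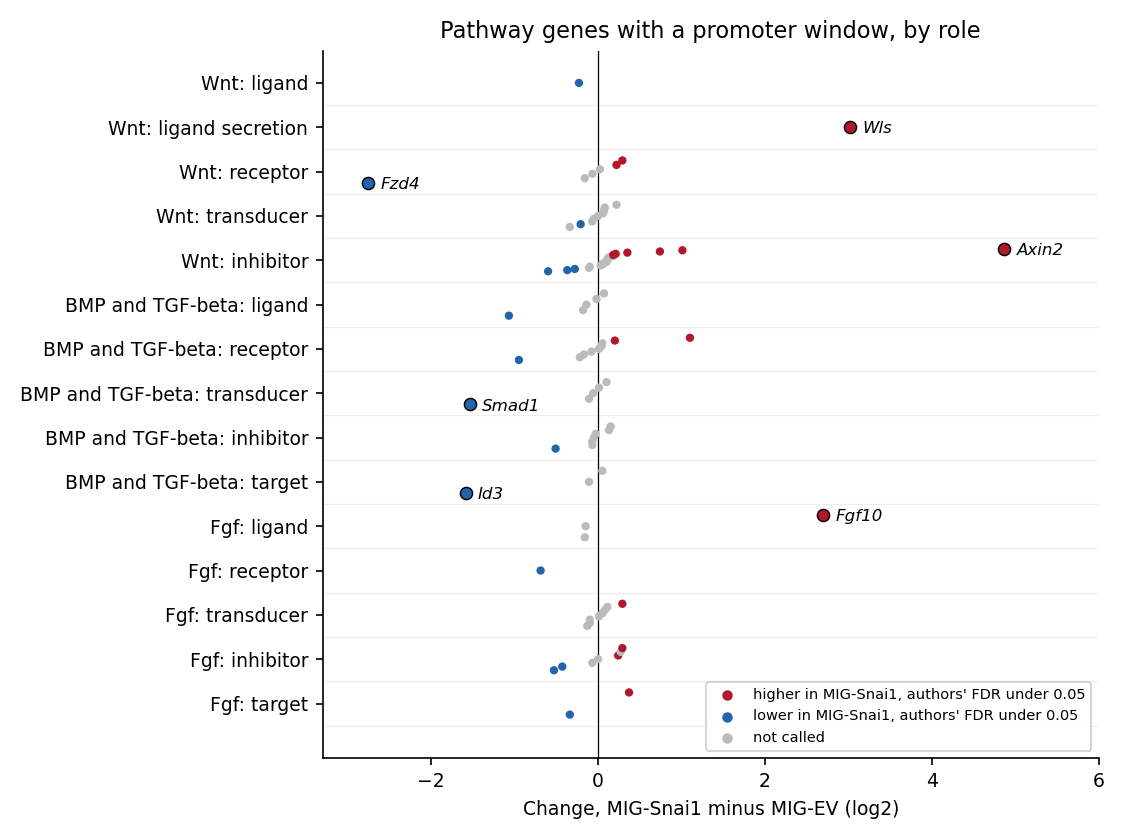
Change (MIG-Snai1 minus MIG-EV, log2) for every gene of the Wnt, BMP and TGF-beta, and Fgf lists with a window, by role, in red or blue where it passed the authors' FDR of 0.05 as higher or lower and in grey otherwise. The 6 outlined genes reach from -2.76 to 4.87, and the others stay between -1.07 and 1.1.

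Over the 3 lists together, 81 genes with a window remained without the 6, and 25 of them (30.9%) passed, 13 higher and 12 lower, against 29.9% of all genes (19.6% higher and 10.3% lower). With the median of all windows subtracted 7 were higher and 15 lower, against 7.24% higher and 13.8% lower of all genes. With the median within 5 Mb subtracted 7 were higher and 12 lower, against 5.36% higher and 8.53% lower of all genes. Of these 81, 3 changed by at least 1, namely Acvr1, Dkk1 and Gdf15. The 6 genes changed by more than any of these 81, and they were chosen with their changes known.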

How the data were processed

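Reads were processed with fastp, Bowtie2, Picard and DiffBind on mm10, per the submitters' processing notes; versions, peak calling, scaling and any Tn5 shift are not given there. The authors deposited log2 concentrations per group, a log2 fold (MIG-EV minus MIG-Snai1), p-values and FDR, per the file headers. The value over both groups equalled the log2 of the mean of the linear group values within 0.009, so group values were also turned into linear reads. Of 10274 rows, 3 exact repeats were dropped. Columns of values per sample numbered 0, so no count model was run. A window took the RefSeq gene (GRCm38.p6, mm10 coordinates) with a 5′ end within 1000 bp on its strand, otherwise a spanning gene, protein-coding ones first (8955 and 1288 windows, 28 with none). Lists used a gene's most open window.

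The implied SE divides the change by the normal deviate for the deposited p-value; changes under 0.1 or p at 0 took the median of their concentration bin (20 bins). It had a median of 0.175 in the least open decile of MIG-EV and 0.083 over all windows. Re-tests set the change minus a median against the implied SE, with Benjamini-Hochberg adjustment. They were tried on simulated windows with normal noise and p-values from the same normal. Such a trial cannot show whether the deposited p-values behave that way. Members, lists and motifs were chosen with earlier results of these data known. Named genes were the 6, all called list genes, up to 4 uncalled ones per list with the highest concentration, the 2 most like windows and the neighbours. Lrp5, Lrp6, Bcl9, Acvr2a, Tgfb3, Smad2 to Smad5, Id1, Id2, Fgf7, Fgf11, the markers and the extremes within 5 Mb were added after their values were seen. Tnks, Tnks2, Pcdh19 and Snai1 were also named outside that rule. Python 3.11.15, pandas 2.3.3, numpy 2.4.6, scipy 1.17.1 and matplotlib 3.10.9 were used.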

Additional observations from a re-analysis of the deposited data

How the results depend on the processing

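The 6 genes kept their direction, and their calls in both re-tests, with the median of all windows or of those within 5 Mb subtracted, and at FDR 0.01. The medians subtracted were 0.08 for all windows and between -0.04 and 0.21 within 5 Mb. These genes were chosen with much larger changes known, so that outcome was fixed beforehand. With a 5′ end within 1 kb required, Axin2 had no window, and all 6 lay under the minimum log2 concentration of 9, so neither gives them a value. Called windows numbered 3075 as deposited (65.5% higher), 1947 at FDR 0.01 (59.2% higher), 2157 with the overall median subtracted (34.4% higher) and 1426 with the median within 5 Mb subtracted (38.5% higher). The Wnt count was 9 at FDR 0.01, against 15. The BMP and TGF-beta count was 2 of 23 genes among windows of at least 9, against 7 of 29. The called genes Gdf15, Tgfbr3, Id3, Acvr1 and Smad1 lay under that minimum, at 6.85, 7.89, 8.0, 8.55 and 8.57 over both groups. Smurf1 and Tgfbr2 remained. The other list counts stayed within 1.5 times. Of 31 called list genes, 6 lost their call with the overall median subtracted (3 others gained one), 9 with the median within 5 Mb (3 gained), and 8 at FDR 0.01; Dvl3, among the 9, turned to 0.07 with the median within 5 Mb subtracted, and the cause was not tested. No paired analysis was possible because library values were not in the table, and for the same reason no replicate could be left out. Depth is unknown, and the implied SE was largest where windows were least open.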
